A study of Mus musculus with 18 samples.

Results

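The nuclear-encoded subunits of the mitochondrial respiratory chain and ATP synthase were followed in L929 cells, an established line of mouse fibroblasts. Genes were taken by name, as every row of the deposited count table whose symbol began with Nduf, Uqcr, Atp5, Cox4, Cox5, Cox6, Cox7 or Cox8, or was Sdha, Sdhb, Sdhc, Sdhd or Cyc1, with at least 10 counts in at least 3 of the 18 libraries. Of the 57180 genes in the table, 118 had such a name and 95 passed this minimum. They were 37 subunits of complex I, 8 complex I assembly factors (the Ndufaf genes), 4 subunits of complex II, 9 of complex III, 14 of complex IV, 18 of complex V, the supercomplex factor Cox7a2l, and 4 rows that are pseudogenes or extra copies (Cox5b-ps, Ndufa12-ps, Ndufb4b and Ndufb4c). All 95 were also among the 14263 genes tested for differential expression.

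RNA was sequenced from wild-type L929 cells in 6 groups of 3 libraries, described as 3 biological replicates. Mock cells are labelled as treated with DMSO. AOA is aminooxyacetic acid, which inhibits aminotransferases, and was given at 0.5 mM, alone or together with 20 mM aspartate (AOA+Asp). HT-DNA, herring testis DNA that is sensed by cGAS once it reaches the cytosol, was transfected with Lipofectamine at 0.5 μg/ml for 6 h, alone (HT-DNA), 1 h after AOA (HT-DNA+AOA), or after AOA with aspartate (HT-DNA+AOA+Asp). The study set out to follow the interferon response, and whether aspartate reverses an effect of AOA on it. No group received aspartate alone, so an effect of aspartate was measured only in the presence of AOA. No group is labelled as given Lipofectamine without DNA, so an effect of HT-DNA cannot be told apart from that of its transfection. The libraries held 17901605 to 24057343 counts, and the members took 1.20% to 1.68% of them. Of 10 fibroblast markers, 7 exceeded 1 CPM (a count scaled to library size) in every library, among them Col1a1, Col1a2, Vim and Pdgfrb, whereas Thy1, Lum and Dcn stayed under 0.17 CPM. Epithelial and endothelial markers stayed under 0.76 CPM, and the leukocyte markers Ptprc, Adgre1 and Cd3e were at 0 counts, although Cd68 was present. Fewer cells and less RNA per cell cannot be told apart in these bulk libraries.

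The respiratory chain passes electrons from NADH (through complex I) and from succinate (through complex II) to ubiquinone, then through complex III and cytochrome c to complex IV, which reduces oxygen. Complexes I, III and IV pump protons, and complex V uses the gradient to make ATP. All complexes but complex II combine subunits encoded in the nucleus with subunits encoded in mitochondrial DNA, and complex II is also an enzyme of the citric acid cycle. Oxidation of NADH by the chain supports the synthesis of aspartate in proliferating cells, the amino acid that inhibition of aminotransferases depletes.

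Levels were compared between genes as CPM divided by the length, in kilobases, of 1 annotated transcript. The median over genes was lowest for the complex I assembly factors (15.5 CPM per kb), rose through complex I (73.3) and complex II (89.8) to complex III (159.5), and was highest for complex V (194) and complex IV (195). Atp5f1b, which encodes the catalytic beta subunit of ATP synthase, had the highest level, 1293 CPM per kb. The lowest of the protein-coding subunits were Cox7a1 (2.6 CPM per kb) and Cox6a2 (3.72 CPM per kb), the isoforms known from heart and skeletal muscle, and their ubiquitous counterparts Cox7a2 and Cox6a1 stood at 153 and 212 CPM per kb. Other tissue-specific isoforms did not reach the minimum in L929 cells, since Cox4i2 had at most 6 counts in a library, Cox7b2 at most 3, Cox6b2 at most 1, and Cox8b and Cox8c had 0 counts in all 18, which allows up to 3 counts per library.

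**Figure D1:**
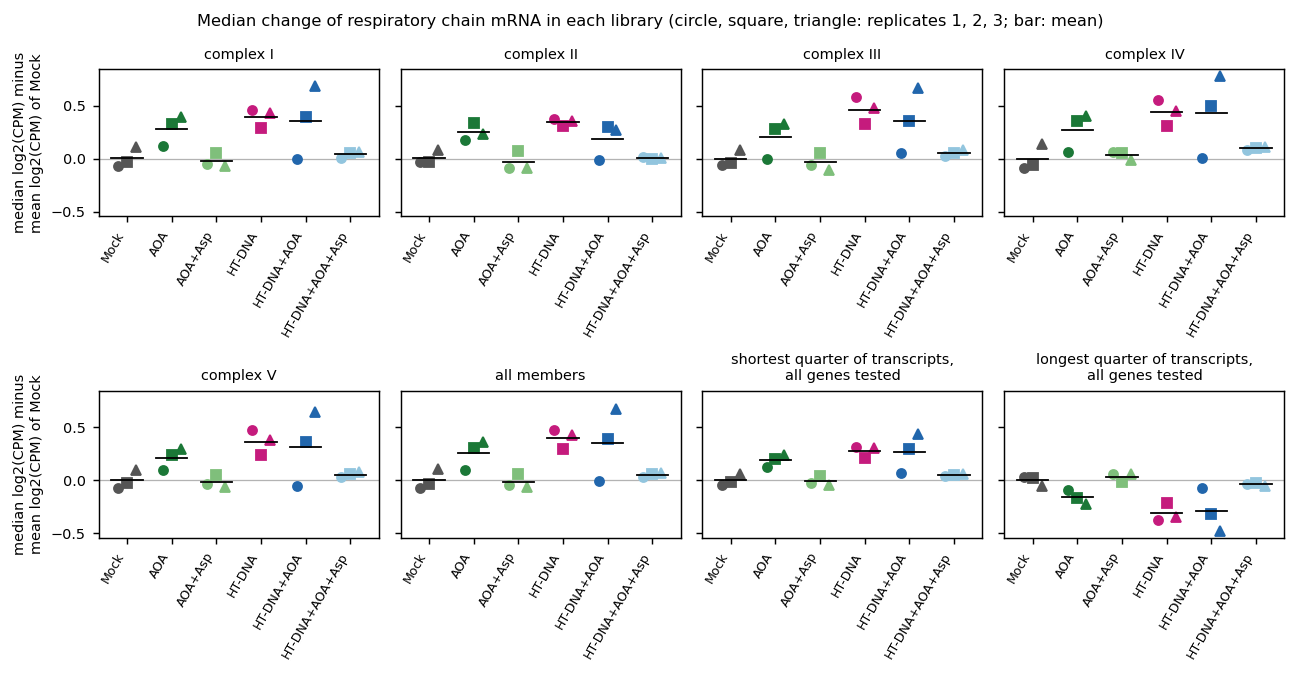
Median change of the members in each of the 18 libraries, as log2(CPM) minus the mean log2(CPM) of the 3 Mock libraries (vertical axes), for each complex, for all members, and for the shortest and longest quartiles of all tested transcripts. The HT-DNA libraries lie between 0.30 and 0.47 for all members, the 3 HT-DNA+AOA libraries spread from about 0 to 0.67, and both groups with aspartate lie close to Mock.

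The members were first compared as a whole in each library, as the median difference from the mean of Mock on the log2(CPM) scale. The Mock libraries stood at -0.074, -0.033 and 0.11. AOA gave 0.10, 0.31 and 0.36, and AOA+Asp -0.047, 0.061 and -0.064. HT-DNA gave 0.47, 0.30 and 0.43, and HT-DNA+AOA+Asp 0.03, 0.055 and 0.068. All 3 HT-DNA libraries lay above all Mock libraries, and the AOA+Asp libraries lay within the range of Mock. The HT-DNA+AOA libraries stood apart from one another, at -0.006, 0.38 and 0.67, so replicate 1 lay within the range of Mock and replicate 3 exceeded every other library. The same order of these 3 libraries was found for complex I (0.00035, 0.40 and 0.68), complex III (0.054, 0.36 and 0.67), complex IV (0.012, 0.50 and 0.78) and complex V (-0.053, 0.36 and 0.64). In complex II the third library (-0.011, 0.30 and 0.27) did not exceed the second. Counts and medians that rest on this group are therefore also given without replicate 1 or replicate 3.

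Transcript length moved with these medians. The members have short transcripts, with a median of 863 bases against 2884 bases over all genes tested, and 80 of the 94 with an annotated length fell in the shortest quartile of all tested genes (at most 1773 bases). Over all genes, the shortest quartile stood at 0.31, 0.21 and 0.31 in the HT-DNA libraries and at 0.072, 0.29 and 0.43 with HT-DNA+AOA, relative to Mock. The longest quartile (at least 4381 bases) stood at -0.38, -0.22 and -0.34 and at -0.072, -0.31 and -0.48. Short and long genes thus moved apart in the same libraries in which the members rose. Counts and medians of the members are therefore given both as fitted and, in most comparisons, after removing from each library trends over all genes. GC content was fitted before transcript length. The result is hereafter called the length-corrected value, although it adjusts for both, and their parts were not separated. The median GC content was 51.1% for the members and 49.7% over all genes tested. The corrected value of a single gene is given where it differs most. Regulators, mitochondrial mRNAs and the other genes beside the members are given as fitted only. All changes are log2 fold changes from edgeR, and a member is said to have risen or fallen where its Benjamini-Hochberg adjusted p was under 0.05. Shares of all tested genes are given as fitted and at an adjusted p under 0.05 only. Counts after length correction, under other settings, without a library or at an unadjusted p have no such share to be set against. The comparisons share libraries, so their counts are not independent of one another.

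AOA alone raised 31 of the 95 members and lowered 4 relative to Mock, where 22.4% of all tested genes rose and 23.3% fell. The median log2 fold change of the members was 0.26, against 0.015 over all genes. The rise was found in 13 of 37 complex I subunits, 3 of 4 complex II subunits, 4 of 9 of complex III, 5 of 14 of complex IV, 4 of 18 of complex V, in Cox7a2l and in Ndufb4c. Among core subunits, Ndufv1, which binds NADH and FMN, rose by 0.40 (SE 0.110, edgeR adjusted p = 0.00595), Uqcrc1, a core protein of complex III, by 0.36 (SE 0.0918, edgeR adjusted p = 0.00382), and Atp5f1b by 0.40 (SE 0.0964, edgeR adjusted p = 0.00216). The complex I subunit Ndufa10 rose from 139, 140.3 and 143 to 188, 208 and 205 CPM (log2 fold change 0.51, SE 0.0825, edgeR adjusted p = 6.42e-05). Members that fell were the assembly factor Ndufaf4, the complex II membrane anchor Sdhd, the complex III hinge protein Uqcrh, and Ndufa4l2, a paralog of the complex IV subunit Ndufa4 that is known from hypoxia. None of these 4 is a subunit of complex I. The length-corrected count was 26 higher and 7 lower, with a median of 0.077, and with library totals in place of TMM scaling it was 13 higher and 5 lower, a setting that moved the median of all genes by -0.13. Leaving out Mock replicate 1, Mock replicate 2 or AOA replicate 3 left 14 higher, and leaving out AOA replicate 2 left 17. The number lower was 2 without Mock replicate 3 or AOA replicate 1.

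With aspartate added to AOA, 37 members were lower than with AOA alone and 3 were higher, and 22.8% of all tested genes fell and 23.5% rose in this comparison. The median log2 fold change was -0.27 (-0.0091 over all genes). Those lower were 15 subunits of complex I, 2 of complex II, 4 of complex III, 5 of complex IV and 6 of complex V, with 1 assembly factor, Cox7a2l and 3 pseudogene-like rows. Ndufs7, an iron-sulfur subunit of complex I, had 48.6, 61.7 and 64.1 CPM with AOA and 36.3, 43.1 and 41.3 CPM with AOA+Asp (log2 fold change -0.53, SE 0.131, edgeR adjusted p = 0.00283), with -0.26 after length correction. The complex III subunit Uqcrq had 151, 179.7 and 182 CPM and 109, 110.2 and 109 CPM (log2 fold change -0.65, SE 0.125, edgeR adjusted p = 0.000391). In both genes every AOA+Asp library was below every AOA library. The 3 members that rose were Uqcrh, Ndufaf4 and Sdhd, each described by library with its complex. The length-corrected count was 21 lower and 13 higher (median -0.094), and the number lower was 21 without AOA+Asp replicate 3, 22 without AOA replicate 3 and 24 without AOA replicate 2.

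AOA+Asp did not differ from Mock in any of the 95 members by edgeR's test, where 2.52% of all tested genes rose and 3.95% fell. At an unadjusted p under 0.05, 4 members differed. The median log2 fold change was -0.026, and fitted values ran from -0.33 to 0.29. DESeq2 called 1 member higher and 0 lower, edgeR with no filter on low counts called 1 higher, and with only the 6 libraries of both groups fitted 1 was higher and 3 were lower. After length correction 1 was lower and the median was 0.019.

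HT-DNA alone raised 73 of the 95 members and lowered 2 relative to Mock, where 24.2% of all tested genes rose and 24% fell. The median was 0.41 for the members and -0.0076 over all genes. The rise covered every complex, with 28 of 37 subunits of complex I, 3 of 4 of complex II, 8 of 9 of complex III, 11 of 14 of complex IV and 15 of 18 of complex V, and 5 of 8 assembly factors. The medians of the complexes lay close together, from 0.34 in complex II to 0.47 in complex III. Cyc1 rose from 147, 156 and 161 to 221, 208 and 243 CPM (log2 fold change 0.54, SE 0.123, edgeR adjusted p = 0.00186). Cox4i1, a regulatory subunit of complex IV, rose from 169, 172 and 182 to 248, 225 and 245 CPM (log2 fold change 0.46, SE 0.126, edgeR adjusted p = 0.00643). The largest rise was that of the assembly factor Ndufaf8, from 12.2, 12.3 and 13.3 to 20.7, 18.9 and 22.2 CPM (log2 fold change 0.71, SE 0.158, edgeR adjusted p = 0.00143), with a length-corrected value of 0.22. For these 3 genes, every HT-DNA library exceeded every Mock library. The 2 members that fell were Sdha and Ndufs1, and Ndufs1 was not called without HT-DNA replicate 1.

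After length correction 34 members were higher with HT-DNA and 6 were lower, and the median was 0.10, against -0.012 over all genes. The share of all genes called after the correction is not given here. Most of the loss was in the complexes, where the number of higher subunits went from 28 to 10 in complex I, 11 to 4 in complex IV and 15 to 7 in complex V, whereas 6 of 8 assembly factors were higher, with a median of 0.28. The corrected value of Cyc1 was 0.17 (adjusted p = 0.0123 with edgeR) and that of Cox4i1 was -0.084 (adjusted p = 0.119 with edgeR). The number higher was 42 without Mock replicate 1 and 43 without HT-DNA replicate 1.

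**Figure D2:**
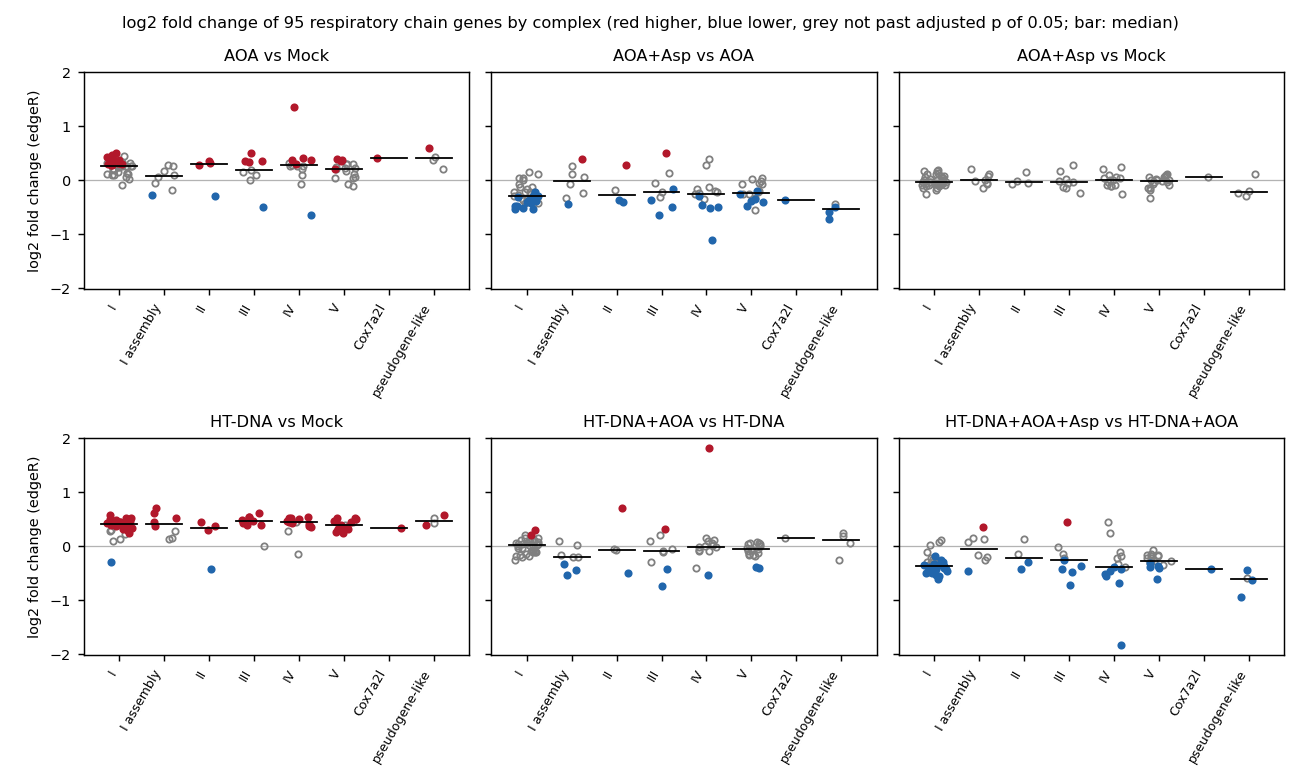
log2 fold change (edgeR, vertical axes) of the 95 members in 6 comparisons, grouped by complex. Red points are higher and blue points lower at an adjusted p under 0.05, grey circles did not pass, and bars are medians; 73 members rose with HT-DNA, none differed between AOA+Asp and Mock, and single genes such as Cox6a2 and Uqcrh lie far from their complex.

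In HT-DNA–stimulated cells, AOA raised 5 members and lowered 9, where 22.8% of all tested genes rose and 22.7% fell, and the median was -0.039. This median was -0.070 after length correction, 0.012 without HT-DNA replicate 1, -0.10 without its replicate 2 and -0.012 without its replicate 3. Those raised were Cox6a2, Sdha, Uqcrc2, Ndufs1 and Ndufa9. Those lowered were Uqcrh, Ndufa4l2, Ndufaf4, Sdhd, Ndufaf8, Uqcrfs1, Atp5mc1, Atp5mc3 and the assembly factor Ndufaf5. Atp5mc1 and Atp5mc3 are 2 of the 3 genes for the c subunit of ATP synthase, whose mature protein is the same from all of them, and their changes were -0.39 and -0.39, the former not called after length correction, without HT-DNA replicate 3 or without replicate 1 or 2 of HT-DNA+AOA. The call of Ndufa9 was lost after length correction and without any 1 of HT-DNA replicates 2 and 3 and HT-DNA+AOA replicates 2 and 3, and that of Ndufaf8 without any 1 of HT-DNA replicates 1 and 3 and HT-DNA+AOA replicates 1 and 2. The count depended on the libraries of HT-DNA+AOA, with 23 higher and 5 lower without replicate 1 (median 0.15) and 4 higher and 29 lower without replicate 3 (median -0.23). The number lower was 5 without HT-DNA replicate 3 or replicate 2 of HT-DNA+AOA. The calls of Sdha, Sdhd, Uqcrh, Ndufaf4, Uqcrc2, Uqcrfs1, Ndufs1 and Cox6a2 held without each of the 6 libraries in turn. After length correction the count was 16 higher and 21 lower, including 6 of 8 assembly factors lower.

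When aspartate was present with HT-DNA and AOA, 49 members were lower than with HT-DNA+AOA and 2 were higher, where 23.9% of all tested genes fell and 23.7% rose. The median was -0.33, with -0.50 without HT-DNA+AOA replicate 1 and -0.17 without its replicate 3. The lower members were 25 of complex I, 2 of complex II, 5 of complex III, 7 of complex IV and 5 of complex V, with 1 assembly factor, Cox7a2l and 3 pseudogene-like rows, and Uqcrh and Ndufaf4 were higher. The number lower was 80 without HT-DNA+AOA replicate 1, 20 without replicate 3, 32 without HT-DNA+AOA+Asp replicate 1, and 12 when only these 6 libraries were fitted, and 1 was higher without HT-DNA+AOA+Asp replicate 3. After length correction 20 were lower and 7 higher, with a median of -0.056.

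Relative to HT-DNA alone, HT-DNA+AOA+Asp was lower in 56 members and higher in 4 (Sdha, Ndufs1, Uqcrc2 and the assembly factor Ndufaf1), where 23.5% of all tested genes fell and 23.2% rose. The median was -0.36 as fitted and -0.14 after length correction, and complex III had the lowest median of the complexes, -0.44. The number lower was 28 without replicate 1 and 35 without replicate 3 of HT-DNA, 36 without replicate 1 and 37 without replicate 3 of HT-DNA+AOA+Asp, and 35 after length correction, and 2 were higher without HT-DNA replicate 2. Uqcrc2 had 0.19 (SE 0.0598, edgeR adjusted p = 0.0145), a call lost without replicate 2 of HT-DNA or replicate 3 of HT-DNA+AOA+Asp, and -0.0021 after length correction.

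**Figure D3:**
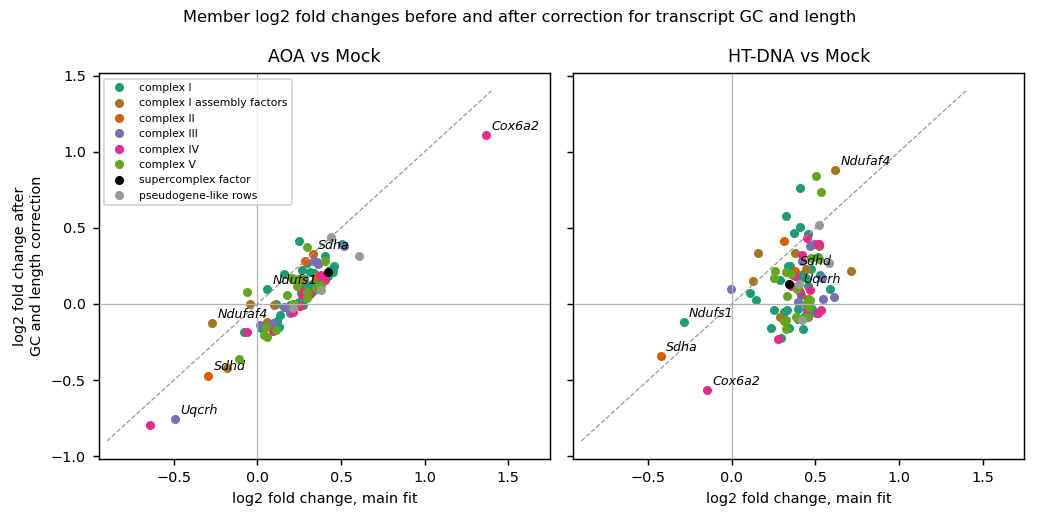
log2 fold change of each member as fitted by edgeR (horizontal axis) and after correction for transcript GC content and length (vertical axis), with AOA (left) and HT-DNA (right) relative to Mock; the dashed line marks equal values. Most members shift down from the line with HT-DNA, to a median of 0.10, while Sdha and Ndufs1 stay below 0 and Ndufaf4 stays above it.

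Groups with and without HT-DNA were also compared where both had AOA. HT-DNA+AOA exceeded AOA in 4 members (Ndufaf2, Cox7b, Uqcrb and Ndufaf4) and was lower in none by edgeR's test, where 6.46% of all tested genes rose and 6.98% fell. At an unadjusted p under 0.05, 7 members differed, and DESeq2 called 5 higher and 0 lower. The number higher was 47 without HT-DNA+AOA replicate 1, 2 without AOA replicate 2 and 1 without AOA replicate 1, HT-DNA+AOA replicate 2 or HT-DNA+AOA replicate 3. It was 0 when only those 6 libraries were fitted, and after length correction 2 were higher and 10 lower. Without HT-DNA+AOA replicate 3, 1 member was lower. HT-DNA+AOA+Asp exceeded AOA+Asp in 1 member, Ndufaf4 (log2 fold change 0.33, SE 0.0618, edgeR adjusted p = 0.0034), where 1.93% of all genes rose and 1.52% fell. By DESeq2, 1 was higher and 0 lower, and 1 member had an unadjusted p under 0.05. These comparisons and the interaction of HT-DNA with AOA+Asp were added after the data were seen.

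The difference between the effects was tested as an interaction. The effect of AOA in HT-DNA–stimulated cells was lower than its effect in unstimulated cells for 5 members (Ndufaf8, Ndufb4c, Uqcrc1, Uqcrfs1 and Ndufa10) and higher for 0 by edgeR's test, where the effect was lower for 8.26% and higher for 7.23% of all tested genes. At an unadjusted p under 0.05, for which no share of all genes is given, 26 members differed, and DESeq2 gave 7 lower and 1 higher. The median interaction was -0.28, with -0.12 without HT-DNA+AOA replicate 1, -0.47 without its replicate 3 and -0.13 after length correction. The number lower was 55 without HT-DNA+AOA replicate 3, and 26 with no filter on low counts. It was 0 without Mock replicate 1, AOA replicate 2, HT-DNA replicate 1, HT-DNA replicate 3 or HT-DNA+AOA replicate 2 and when only the 4 groups were fitted, 1 without Mock replicate 3, 2 without Mock replicate 2 or AOA replicate 3, and 3 without HT-DNA replicate 2 or HT-DNA+AOA replicate 1. The number higher was 1 without AOA replicate 1 and 2 without HT-DNA+AOA replicate 3. For Uqcrfs1, the Rieske iron-sulfur protein of complex III, the AOA effect was 0.013 without and -0.42 with HT-DNA, an interaction of -0.44 (SE 0.137, edgeR adjusted p = 0.0382). The HT-DNA effect in AOA+Asp-treated cells was compared with that in Mock cells in the same way. It differed for 0 members by edgeR's test, where it was higher for 3.24% and lower for 3.01% of all genes. At an unadjusted p under 0.05, 36 members differed, and the share of all genes at that threshold is not given. The median was -0.34 as fitted and -0.098 after length correction, and 64 members were lower when only the 4 groups concerned were fitted, 34 with no filter on low counts, 5 after length correction, 2 with DESeq2, which also gave 1 higher, and 1 without AOA+Asp replicate 3 or HT-DNA replicate 2.

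The members called in opposite directions by AOA and by HT-DNA were Sdha, Sdhd, Uqcrh and Ndufaf4. Their promoters are shown because 3 of these genes moved together and Sdha moved against them. The promoters run from 250 bases before to 50 bases after the annotated start, 5′ to 3′ on the strand of the gene, and come from RefSeq on GRCm38.p6. Capitals mark matches, on either strand, to 3 motifs of factors known to act on respiratory chain genes, namely GCGCA and GCGC parted by any 1 base for NRF1, CCGGAAG for ETS factors such as GABPA, and AAGATGGCG for YY1.
Sdha (chr13:74350191-74350490, minus strand): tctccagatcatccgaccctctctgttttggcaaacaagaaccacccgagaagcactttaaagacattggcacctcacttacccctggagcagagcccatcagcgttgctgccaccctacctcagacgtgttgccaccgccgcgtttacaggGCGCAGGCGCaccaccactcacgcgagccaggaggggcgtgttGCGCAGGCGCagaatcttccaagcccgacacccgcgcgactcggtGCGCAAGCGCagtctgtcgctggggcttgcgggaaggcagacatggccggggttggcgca
Sdhd (chr9:50603800-50604099, minus strand): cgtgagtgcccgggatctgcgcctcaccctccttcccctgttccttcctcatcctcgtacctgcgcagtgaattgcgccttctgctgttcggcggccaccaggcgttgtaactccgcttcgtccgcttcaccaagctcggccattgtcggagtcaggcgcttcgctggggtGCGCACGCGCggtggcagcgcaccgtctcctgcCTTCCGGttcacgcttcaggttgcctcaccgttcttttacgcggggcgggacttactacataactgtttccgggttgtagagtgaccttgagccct
Uqcrh (chr4:116075021-116075320, minus strand): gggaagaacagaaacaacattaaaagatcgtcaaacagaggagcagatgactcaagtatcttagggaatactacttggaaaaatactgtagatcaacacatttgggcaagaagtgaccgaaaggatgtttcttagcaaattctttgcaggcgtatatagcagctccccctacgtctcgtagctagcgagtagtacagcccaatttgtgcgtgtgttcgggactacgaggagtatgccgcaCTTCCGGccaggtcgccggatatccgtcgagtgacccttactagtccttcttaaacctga
Ndufaf4 (chr4:24897833-24898132, plus strand): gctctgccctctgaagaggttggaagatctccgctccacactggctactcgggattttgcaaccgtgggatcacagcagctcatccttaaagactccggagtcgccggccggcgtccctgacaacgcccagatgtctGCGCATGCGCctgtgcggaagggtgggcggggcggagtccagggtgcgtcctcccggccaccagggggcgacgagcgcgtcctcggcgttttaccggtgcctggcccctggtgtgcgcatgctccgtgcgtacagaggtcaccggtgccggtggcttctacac

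The Sdha window held 3 matches to the NRF1 motif, beginning 98, 55 and 10 bases before the start. The Sdhd window held 1 NRF1 match, 79 bases before the start, and 1 ETS match on the opposite strand, 46 bases before it. Uqcrh had 1 ETS match 10 bases before the start, and Ndufaf4 had 1 place, 113 bases before the start, that matched the NRF1 motif on both strands. Of the 95 members, 74 had a promoter in the RefSeq table, and 36 of the 74 held at least 1 of the motifs. The NRF1 motif was found in 24.3% of the 74 members, in 10.5% of the 9879 tested genes that had a promoter, members included, and in 4.78% of all 27025 promoters. The shares were 23%, 19.1% and 9.12% for the ETS motif, and 9.46%, 3.37% and 1.49% for the YY1 motif. A match describes the letters in this window and not the binding of a factor.

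Within complex II, the 4 subunits did not move together. This complex oxidizes succinate on the flavoprotein Sdha, passes the electrons through the iron-sulfur subunit Sdhb, and is anchored in the membrane by Sdhc and Sdhd. Sdha (ENSMUSG00000021577) had 200.4, 196 and 179.6 CPM in the Mock libraries, 274, 244 and 205 with AOA, 223, 203 and 216 with AOA+Asp, 148, 143 and 138 with HT-DNA, 259, 241 and 204 with HT-DNA+AOA and 217, 213 and 208 with HT-DNA+AOA+Asp. The HT-DNA libraries were the lowest of all 18, and none overlapped another group. Sdha thus fell with HT-DNA (log2 fold change -0.43, SE 0.0943, edgeR adjusted p = 0.00138), and was higher with HT-DNA+AOA than with HT-DNA (log2 fold change 0.72, SE 0.0945, edgeR adjusted p = 4.82e-06). Without HT-DNA, AOA raised it (log2 fold change 0.33, SE 0.0938, edgeR adjusted p = 0.00768), a call that was lost without AOA replicate 1 and with library totals (log2 fold change 0.20). HT-DNA+AOA+Asp also exceeded HT-DNA (log2 fold change 0.57, SE 0.0944, edgeR adjusted p = 0.000165). The length-corrected values were 0.33 with AOA, -0.34 with HT-DNA and 0.62 with AOA in HT-DNA–stimulated cells.

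Sdhd (ENSMUSG00000000171) moved the other way. It had 158, 161 and 173 CPM in Mock, 122, 134 and 144 with AOA, 155, 173 and 157 with AOA+Asp, 217, 201 and 221 with HT-DNA, 125, 154 and 175 with HT-DNA+AOA and 164, 162 and 169.6 with HT-DNA+AOA+Asp. The HT-DNA libraries were the highest of all 18 and the AOA libraries lay below Mock. Sdhd rose with HT-DNA (log2 fold change 0.38, SE 0.0936, edgeR adjusted p = 0.00307), fell with AOA in stimulated cells (log2 fold change -0.49, SE 0.0940, edgeR adjusted p = 0.000277), and fell with AOA alone (log2 fold change -0.29, SE 0.0941, edgeR adjusted p = 0.0154). The last call was lost without Mock replicate 3 or AOA replicate 1, and the length-corrected values of the 3 comparisons were 0.22, -0.61 and -0.47. Sdhb had 104, 105 and 114 CPM in Mock, 122, 145 and 145 with AOA and 153, 137 and 152 with HT-DNA, and rose with both, by 0.35 (SE 0.126, edgeR adjusted p = 0.029) and by 0.45 (SE 0.126, edgeR adjusted p = 0.00662). After length correction the values of Sdhb were 0.18 and 0.034, and the AOA call was lost without Mock replicate 1, Mock replicate 2, AOA replicate 2 or AOA replicate 3. Sdhc also rose with both, by 0.29 and 0.31, the former not called without Mock replicate 2 or AOA replicate 3. With AOA+Asp, Sdhd exceeded its AOA level by 0.28 (SE 0.0941, edgeR adjusted p = 0.0211), a call lost without AOA replicate 1, AOA replicate 2 or AOA+Asp replicate 2.

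**Figure D4:**
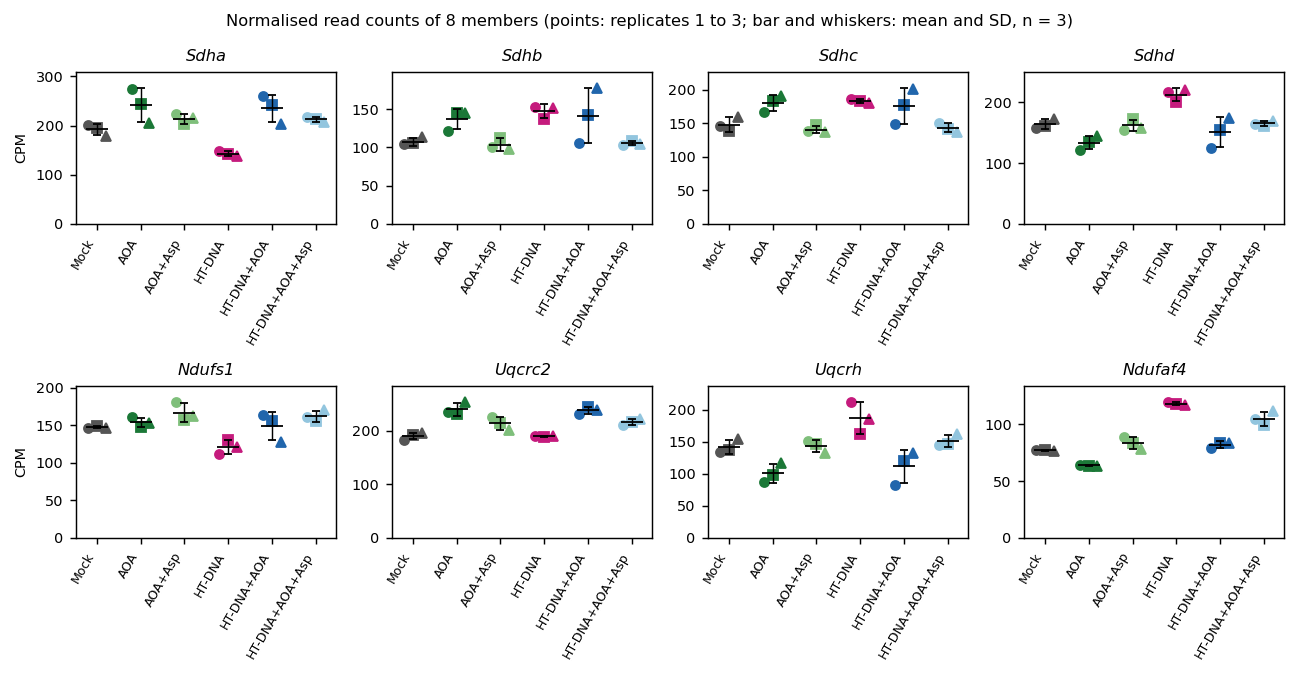
Normalised read counts (CPM, vertical axes starting at 0) of 8 members in the 18 libraries; points are replicates, and bars with whiskers are means and SD of 3. Sdha and Ndufs1 are lowest with HT-DNA, whereas Sdhd, Uqcrh and Ndufaf4 are highest with HT-DNA. These 3 are lower with AOA than in Mock, and lower with HT-DNA+AOA than with HT-DNA.

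In complex I, Ndufs1 fell with HT-DNA while 28 of the other 36 subunits rose. Ndufs1 (ENSMUSG00000025968) encodes the largest iron-sulfur subunit of the NADH-oxidizing arm. It had 147, 149.6 and 147 CPM in Mock, 112, 131 and 121 with HT-DNA, 164, 155 and 128 with HT-DNA+AOA and 161, 156 and 170.2 with HT-DNA+AOA+Asp. The HT-DNA libraries lay below all Mock libraries, and HT-DNA+AOA replicate 3 lay within the HT-DNA range. It fell with HT-DNA (log2 fold change -0.29, SE 0.0839, edgeR adjusted p = 0.00899), a call lost without HT-DNA replicate 1, and it had a length-corrected value of -0.12. With AOA in stimulated cells it rose (log2 fold change 0.30, SE 0.0840, edgeR adjusted p = 0.00663), a call lost when only those 6 libraries were fitted, with 0.13 after length correction. Of the other core subunits named here, Ndufs7, Ndufs8, Ndufv1 and Ndufv2 rose with HT-DNA by 0.31 to 0.48, and Ndufs3 had 0.23 (SE 0.108, edgeR adjusted p = 0.082). The call of Ndufv1 was lost without any 1 of Mock replicates 1 and 2 and HT-DNA replicates 1 and 3. After length correction, Ndufv2 was higher (0.46) and Ndufs3 lower (-0.16), and Ndufs7, Ndufs8 and Ndufv1 lay between -0.054 and -0.036.

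Ndufaf4 (ENSMUSG00000028261), an assembly factor of complex I, had the smallest mean coefficient of variation between replicates of all members. It had 77.4, 77.2 and 76.7 CPM in Mock, 64.5, 63.6 and 63.6 with AOA, 89.2, 83.4 and 78.2 with AOA+Asp, 119.6, 118 and 117 with HT-DNA, 78.9, 83.8 and 83.7 with HT-DNA+AOA and 105, 99.1 and 111 with HT-DNA+AOA+Asp. The HT-DNA libraries exceeded all others, and the AOA libraries were below all others. It rose with HT-DNA (log2 fold change 0.62, SE 0.0619, edgeR adjusted p = 1.14e-06), fell with AOA alone (log2 fold change -0.27, SE 0.0625, edgeR adjusted p = 0.00164), and fell with AOA in stimulated cells (log2 fold change -0.52, SE 0.0620, edgeR adjusted p = 1.26e-06). It was higher with AOA+Asp than with AOA (log2 fold change 0.39, SE 0.0625, edgeR adjusted p = 6.31e-05), and higher with HT-DNA+AOA+Asp than with HT-DNA+AOA (log2 fold change 0.36, SE 0.0620, edgeR adjusted p = 0.000131). The transcript of Ndufaf4 is long for a member (3632 bases) and low in GC content (39.5%), and the correction adjusts for both. Its length-corrected values were 0.88 with HT-DNA, -0.13 with AOA and -0.70 with AOA in stimulated cells. Of these, the AOA value did not pass (adjusted p = 0.298 with edgeR). Both changes with aspartate were also lost, at 0.072 and 0.18.

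In complex III, Uqcrh and Uqcrc2 moved in opposite directions with AOA. Uqcrh (ENSMUSG00000063882), the hinge protein that is thought to aid the contact between cytochrome c1 and cytochrome c, had 134, 137 and 154 CPM in Mock, 87.7, 98.1 and 116 with AOA, 151, 147 and 132 with AOA+Asp, 212, 162 and 185 with HT-DNA, 82.1, 119.7 and 132 with HT-DNA+AOA and 144, 147 and 162 with HT-DNA+AOA+Asp. Every AOA library was below every Mock and AOA+Asp library, and every HT-DNA+AOA library was below every HT-DNA and HT-DNA+AOA+Asp library. It fell with AOA alone (log2 fold change -0.49, SE 0.139, edgeR adjusted p = 0.00725), and in stimulated cells (log2 fold change -0.74, SE 0.139, edgeR adjusted p = 0.00023). It was higher with aspartate, by 0.51 (SE 0.139, edgeR adjusted p = 0.00558) without HT-DNA and by 0.44 with it, and the latter call was lost without HT-DNA+AOA+Asp replicate 3 and when only those 6 libraries were fitted. The length-corrected values were larger in size, -0.76 with AOA alone and -0.91 in stimulated cells, while the rise with HT-DNA alone, 0.40, was 0.10 after correction. The HT-DNA call was also lost with library totals and without Mock replicate 1, Mock replicate 2, HT-DNA replicate 1 or HT-DNA replicate 3.

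Uqcrc2 (ENSMUSG00000030884), a core protein of complex III, had 183, 192 and 195 CPM in Mock, 235, 231 and 253 with AOA, 190.0, 188 and 190.0 with HT-DNA and 231, 243 and 238 with HT-DNA+AOA. Both groups with AOA and no aspartate lay above Mock and HT-DNA. It rose with AOA alone (log2 fold change 0.34, SE 0.0598, edgeR adjusted p = 0.000162), and in stimulated cells (log2 fold change 0.33, SE 0.0599, edgeR adjusted p = 0.000181), where the length-corrected value was 0.11 (adjusted p = 0.0786 with edgeR). HT-DNA alone gave -0.0028 (95% interval -0.13 to 0.12). Of the 31-base sequences in Uqcrc2 transcripts, 18.5% also occur in other genes, so reads could have been divided among copies. Its partner Uqcrc1 rose with AOA alone by 0.36 and with HT-DNA by 0.40, the latter 0.015 after length correction. Uqcrfs1 had 171, 166 and 178 CPM in Mock, 157, 181 and 181 with AOA, 259, 232 and 232 with HT-DNA and 146, 184 and 209 with HT-DNA+AOA, and every HT-DNA library exceeded every library of the other 3 groups. It rose with HT-DNA (log2 fold change 0.49, SE 0.0967, edgeR adjusted p = 0.00056), and was lower with AOA in stimulated cells (log2 fold change -0.42, SE 0.0968, edgeR adjusted p = 0.0014).

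In complex IV, the muscle isoform Cox6a2 had the largest fold change of all 95 members in each comparison that added AOA, or aspartate to AOA. Cox6a2 (ENSMUSG00000030785) had 1.74, 1.44 and 1.47 CPM in Mock, 4.40, 4.38 and 3.20 with AOA, 1.87, 1.96 and 1.73 with AOA+Asp, 1.47, 1.61 and 1.14 with HT-DNA, 4.60, 4.06 and 6.32 with HT-DNA+AOA and 1.69, 1.54 and 0.947 with HT-DNA+AOA+Asp. Every library with AOA and no aspartate exceeded every other library. It rose with AOA alone (log2 fold change 1.37, SE 0.221, edgeR adjusted p = 6.14e-05), and in stimulated cells (log2 fold change 1.83, SE 0.224, edgeR adjusted p = 1.98e-06), and was lower with aspartate in both, at -1.11 (SE 0.217, edgeR adjusted p = 0.0004) and -1.83 (SE 0.224, edgeR adjusted p = 2.67e-06). HT-DNA alone gave -0.15 (95% interval -0.66 to 0.36). These levels rest on 20 to 106 counts per library, and the length-corrected values with AOA were 1.11 and 1.82. Of the muscle markers, Myh1 and Myog were at 0 counts in all libraries, Ckm at most at 0.26 CPM and Acta1 between 2.27 and 4.05 CPM. The ubiquitous Cox6a1 stood at 101 ± 8.58 CPM in the Mock group and at 132 ± 8.82 CPM under AOA (SD, n = 3), and its rise with AOA was not called without Mock replicate 1, Mock replicate 2, AOA replicate 2 or AOA replicate 3.

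**Figure D5:**
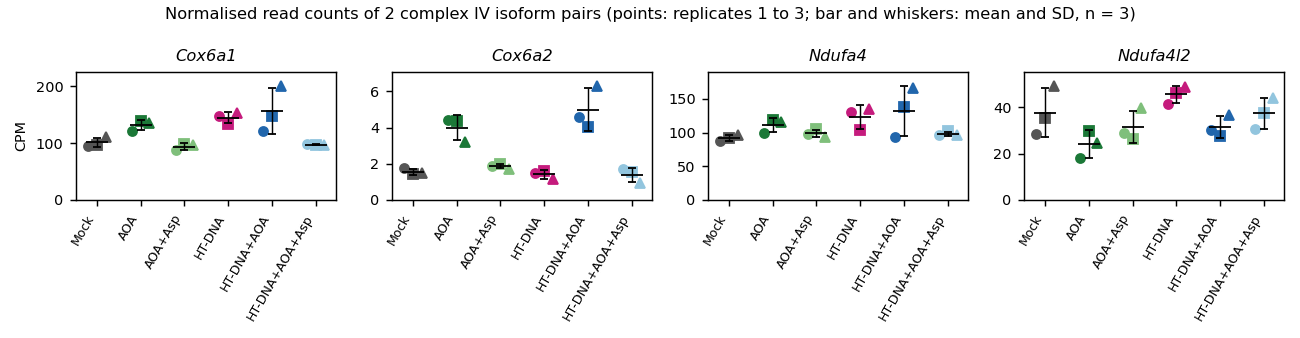
Normalised read counts (CPM, vertical axes starting at 0) of 2 isoform pairs of complex IV in the 18 libraries; points are replicates, and bars with whiskers are means and SD of 3. Cox6a2 lies between 3.2 and 6.3 CPM in both AOA groups without aspartate and at or below 2.0 CPM elsewhere.

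Ndufa4l2 (ENSMUSG00000040280) had 28.5, 35.3 and 49.3 CPM in Mock, 17.9, 29.7 and 24.6 with AOA, 41.5, 46.2 and 48.8 with HT-DNA and 30.4, 27.5 and 36.4 with HT-DNA+AOA. It fell with AOA alone (log2 fold change -0.64, SE 0.206, edgeR adjusted p = 0.0162), although the libraries of Mock and AOA overlapped and the call was lost without Mock replicate 3 or AOA replicate 1 and when only those 6 libraries were fitted. In stimulated cells it was lower with AOA (log2 fold change -0.54, SE 0.203, edgeR adjusted p = 0.0381), a call lost after length correction and without any 1 of HT-DNA replicates 2 and 3 and HT-DNA+AOA replicates 1 and 2. Cox5a and Cox5b, which bind the mitochondrially encoded core of complex IV, rose with HT-DNA by 0.36 and 0.38 and with AOA by 0.41 and 0.30. Of these 4 calls, that of Cox5a with HT-DNA was lost without Mock replicate 1 or HT-DNA replicate 1, and that of Cox5b with AOA without Mock replicate 1, Mock replicate 2 or AOA replicate 3. After length correction Cox5a had 0.12 with HT-DNA and Cox5b 0.076 with AOA, neither of them called (adjusted p = 0.0912 and 0.274 with edgeR), while Cox5b with HT-DNA (0.18) and Cox5a with AOA (0.16) stayed past the threshold.

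In complex V, the subunits of the catalytic head were higher with HT-DNA. Atp5f1b had 2112, 2089 and 2174 CPM in Mock, 2592, 2929 and 2911 with AOA, 2039, 2270.5 and 2103 with AOA+Asp and 2768, 2598 and 2769 with HT-DNA. Every AOA and every HT-DNA library exceeded every Mock and AOA+Asp library. The alpha, beta and gamma subunits Atp5f1a, Atp5f1b and Atp5f1c rose with HT-DNA by 0.26, 0.35 and 0.33, and by 0.22, 0.19 and 0.21 after length correction. With AOA, Atp5f1b rose by 0.40 and Atp5f1c had 0.24 (adjusted p = 0.0542 with edgeR). Of the c-subunit genes, Atp5mc1 and Atp5mc3 rose with HT-DNA by 0.50 and 0.39, and Atp5mc2, at 5.75 CPM in Mock, had 0.45 (adjusted p = 0.107 with edgeR). After length correction Atp5mc1 had 0.84, Atp5mc2 -0.086 and Atp5mc3 0.10, and the call of Atp5mc3 was lost (adjusted p = 0.0719 with edgeR). The correction took a transcript of 4715 bases for Atp5mc1, against 731 for Atp5mc2 and 723 for Atp5mc3. The corrected values of these 3 genes therefore depend on the transcript chosen. Atp5if1, the inhibitor of ATP hydrolysis, rose with HT-DNA by 0.32, a call lost without Mock replicate 1, Mock replicate 2, HT-DNA replicate 1 or HT-DNA replicate 3, and its length-corrected value was -0.11 (adjusted p = 0.228 with edgeR).

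Transcripts of regulators of the chain were measured as well, and these and the lists after them are given without length correction. Of 10 regulators listed, 4 rose and 4 fell with AOA, and 3 rose and 3 fell with HT-DNA, beside 22.4% and 23.3% of all tested genes with AOA and 24.2% and 24% with HT-DNA. Ppargc1a, which encodes the coactivator PGC-1α, had 10.5, 9.37 and 9.11 CPM in Mock, 5.38, 5.80 and 8.26 with AOA, 19.4, 15.4 and 20.2 with AOA+Asp, 3.44, 4.88 and 3.89 with HT-DNA, 9.56, 6.21 and 4.95 with HT-DNA+AOA and from 14.7 to 18.5 with HT-DNA+AOA+Asp. It was lowest with HT-DNA (-1.25, adjusted p = 0.000155 with edgeR) and highest in both groups with aspartate, above all Mock libraries. Its partner Esrra, an orphan nuclear receptor, fell with AOA (-0.76) and rose with HT-DNA (0.59). Nrf1 rose with AOA and with HT-DNA (0.25 and 0.43), as did Gabpb1 (0.26 and 0.36). Tfam, which packages mitochondrial DNA and takes part in its transcription, rose with AOA (0.44). Mean levels of Yy1 were 86.6 CPM in Mock, 63.5 with AOA, 77.3 with HT-DNA and 49.6 with HT-DNA+AOA. Those of Gabpa were 59.1 CPM in Mock, 53.0 with AOA, 47.0 with HT-DNA and 48.7 with HT-DNA+AOA.

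Of the 13 mRNAs of mitochondrial DNA, 4 rose with HT-DNA, where the median was 0.057, and 4 rose and 2 fell with AOA, where it was 0.27. The shares of all tested genes were the same as above (24.2% higher with HT-DNA, 22.4% higher and 23.3% lower with AOA). With AOA+Asp against Mock, 4 rose and 0 fell, with a median of 0.21, where 2.52% of all tested genes rose and 3.95% fell. The complex I subunits mt-Nd1 and mt-Nd2 fell with AOA (-0.75 and -0.61), and in stimulated cells they also fell with AOA (-0.76 and -0.63). mt-Nd1 had 4303, 4140.0 and 4269 CPM in Mock and 2749, 2305 and 2527 CPM with AOA, without overlap, and 4597, 4416 and 4258 CPM with AOA+Asp. mt-Co1 and mt-Cytb rose with AOA (0.40 and 0.42) and stayed above Mock with AOA+Asp (0.40 and 0.43). Of 14 genes for cytochrome c and ubiquinone synthesis, 7 rose and 1 fell with AOA and 9 rose and 1 fell with HT-DNA. Of 41 tested assembly factors other than the Ndufaf genes, 16 rose and 2 fell with AOA and 20 rose and 3 fell with HT-DNA, where 22.4% of all tested genes rose and 23.3% fell with AOA and 24.2% rose and 24% fell with HT-DNA. Sco2, a copper chaperone of complex IV, rose with HT-DNA by 0.89 and with AOA in stimulated cells by 0.81, to 18.6, 19.8 and 29.9 CPM.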

How the data were processed

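Groups (6, each of 3 RNA-seq libraries) were taken from the sample labels. The deposited table holds estimated counts for each gene, which the authors did not normalize, and 11.6% of its entries have decimals; the aligner, counting program, strand setting and genome build are not given in the sources used here. The design had assumed whole counts, so values were rounded first. Their group means were checked and not used further.

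Differential expression was tested by edgeR 4.0.16 under R 4.3.3 (TMM scaling, filterByExpr with a minimum count of 10 and total of 15, robust quasi-likelihood test over all 18 libraries, Benjamini-Hochberg adjusted p under 0.05). CPM are counts relative to TMM-scaled library size. The alternatives were RLE scaling, library totals, DESeq2 1.42.0, no filter, at least 10 counts in every library, only the groups compared, a replicate block, a correction for GC content and length, and each library left out. The correction removed each library's loess trend (span 0.3) with GC content and then with length, using 1 GENCODE vM21 transcript per gene. In all, 38 members share over 10% of their 31-base sequences with other genes and 43 had values that were not whole, so their counts could have been divided among copies. Steps were tested on simulated data. The median total was 20385838 counts, replicates varied more than counting error (chi-square per degree of freedom 2.78 to 67), and intervals at 0 counts cover counting error only.

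The members and lists were chosen with earlier results of these data known. Genes were named as the core subunits of each complex (1 is not reported here), the isoform pairs, up to 5 called members with the largest rise and fall per comparison, and members called in opposite directions by AOA and HT-DNA or in the interaction; regulators, mitochondrially encoded and other genes named with values were picked from their lists after their values were seen. The p-values set a difference between groups against the spread between libraries, which the main fit estimated over all 18 libraries. RefSeq promoters were matched by symbol or older symbol for 74 members and not for 21.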

Additional observations from a re-analysis of the deposited data

Results flagged for a closer look

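The effect of AOA differed between HT-DNA–stimulated and unstimulated cells for 5 members, by an interaction term in edgeR's quasi-likelihood test. In all 5 the effect was lower in stimulated cells. Over all tested genes the effect was lower for 8.26% and higher for 7.23%, so members were not called more often than genes in general. The interaction was -0.72 (SE 0.225, edgeR adjusted p = 0.0373) for Ndufaf8, -0.56 (SE 0.159, edgeR adjusted p = 0.0254) for Ndufb4c, -0.45 (SE 0.130, edgeR adjusted p = 0.0259) for Uqcrc1, -0.44 (SE 0.137, edgeR adjusted p = 0.0382) for Uqcrfs1 and -0.36 (SE 0.116, edgeR adjusted p = 0.0438) for Ndufa10. Of these, Ndufb4c is a processed pseudogene, and 100% of its 31-base sequences also occur in other genes. Its values were not whole in all 18 libraries, so its counts could have been divided among copies. Leaving out 1 library at a time gave between 0 and 55 members with a lower AOA effect. After the correction for transcript length and GC content, the interaction was -0.43, -0.41, -0.16, -0.42 and -0.24 in the same order, and that of Uqcrc1 was not past the threshold (adjusted p = 0.0545 with edgeR). The groups of 3 libraries are too small for a test of single outlying libraries.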

How the results depend on the processing

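Counts of members called were within 1.5 times those reported under RLE scaling, DESeq2, a minimum of 10 counts in every library and the replicate block, except where one of these is named here, and the other settings shifted them as follows. For AOA against Mock, 31 higher became 13 with library totals and 50 both with no filter on low counts and with only the groups compared, and 4 lower became 7 once length and GC content were corrected for. For AOA+Asp against AOA, 3 higher became 7 with library totals, 5 with no filter and 13 after the correction, and 37 lower became 56 with only the groups compared and 21 after the correction. For AOA+Asp against Mock, where 0 were called, 1 was higher with DESeq2, with no filter and with only the groups compared, and lower were 3 with only the groups compared and 1 after the correction. For HT-DNA against Mock, 73 higher and 2 lower became 34 and 6 after the correction. For HT-DNA+AOA against HT-DNA, 5 higher and 9 lower became 3 and 5 with only the groups compared and 16 and 21 after the correction. For HT-DNA+AOA+Asp against HT-DNA+AOA, 2 higher and 49 lower became 4 and 30 with library totals, 1 and 12 with only the groups compared and 7 and 20 after the correction. For HT-DNA+AOA+Asp against HT-DNA, 4 higher became 2 with no filter, and 56 lower became 35 after the correction. For HT-DNA+AOA against AOA, 4 higher became 8 with no filter, 0 with only the groups compared and 2 after the correction, which also gave 10 lower. For HT-DNA+AOA+Asp against AOA+Asp, 1 higher became 2 with only the groups compared. In the interaction of AOA with HT-DNA, 0 higher became 1 with RLE scaling, library totals, DESeq2, no filter, 10 counts in every library or the replicate block and 3 after the correction, and 5 lower became 3 with library totals, 26 with no filter and 0 with only the groups compared. In the interaction of HT-DNA with AOA+Asp, 0 higher became 1 with library totals, DESeq2, no filter, the replicate block or the correction and 2 with only the groups compared, and 0 lower became 2 with DESeq2, 34 with no filter, 64 with only the groups compared and 5 after the correction. Fewer libraries share the estimate of spread with only the groups compared, and the cause of the other shifts was not tested.

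Without 1 library at a time, the number higher and lower ran from 14 to 36 and 2 to 4 for AOA against Mock, 2 to 3 and 21 to 43 for AOA+Asp against AOA, 42 to 79 and 1 to 2 for HT-DNA against Mock, 4 to 23 and 5 to 29 for HT-DNA+AOA against HT-DNA, 1 to 3 and 20 to 80 for HT-DNA+AOA+Asp against HT-DNA+AOA, 2 to 4 and 28 to 60 for HT-DNA+AOA+Asp against HT-DNA, 1 to 47 and 0 to 1 for HT-DNA+AOA against AOA, 0 to 2 and 0 to 55 in the interaction of AOA with HT-DNA, and 0 to 0 and 0 to 1 in that of HT-DNA with AOA+Asp. It stayed at 0 and 0 for AOA+Asp against Mock and at 1 and 0 for HT-DNA+AOA+Asp against AOA+Asp.

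For single genes, 5940 of the values kept their side of the threshold, 351 were no longer past it, 219 were newly past it and 25 changed sign, counting a sign only for values past the threshold before or after the change of setting. Values past it in neither also changed sign and are not listed. Among the 25, the sign changed after the correction for Atp5if1 (-0.21) with AOA; for Atp5mc3 (0.18) and Atp5if1 (0.25) with AOA+Asp against AOA; for Ndufs3 (-0.16), Ndufs7 (-0.036), Ndufs8 (-0.036), Ndufv1 (-0.054), Cox4i1 (-0.084), Cox6a1 (-0.062), Cox8a (-0.039) and Atp5if1 (-0.11) with HT-DNA against Mock; for Uqcrc1 (0.12) and Cox4i1 (0.15) with HT-DNA+AOA against HT-DNA; for Ndufs3 (0.0016), Atp5mc3 (0.24) and Atp5if1 (0.038) with HT-DNA+AOA+Asp against HT-DNA+AOA; for Uqcrc2 (-0.0021), Cox6a1 (0.0072), Ndufs3 (0.14), Ndufv1 (0.041), Uqcrc1 (0.066), Cox4i1 (0.063) and Cox8a (0.040) with HT-DNA+AOA+Asp against HT-DNA; and for Cox4i1 (-0.12) with HT-DNA+AOA against AOA. With HT-DNA+AOA against HT-DNA, Cox8a ran from -0.26 without HT-DNA+AOA replicate 3 to 0.20 without its replicate 1.

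The labels do not say whether replicate numbers pair the libraries, and the main fit did not pair them. Deviations of same-numbered libraries from their group means correlated between -0.10 and 0.28, and no comparison had all 3 pairs over 0.1. The highest values were those of HT-DNA+AOA with AOA, at 0.28, 0.070 and 0.14 for replicates 1 to 3. Unlike numbers in that comparison gave -0.24 to 0.12. With 3 libraries a group, such correlations cannot decide whether same-numbered libraries were handled together. With the replicate block, 6 members were lower in the interaction of AOA with HT-DNA in place of 5, and of 435 values for single genes 428 kept their call. Depth of 17901605 to 24057343 counts limits low members such as Cox6a2, with 20 to 106 counts per library, and the correction rests on 1 annotated transcript per gene, which may not be the one used in L929 cells.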
